A study of Mus musculus with 24 samples.

Results

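The 10 Wnt ligand genes described here, Wnt3, Wnt4, Wnt5a, Wnt5b, Wnt6, Wnt7b, Wnt9b, Wnt10a, Wnt10b and Wnt11, were found by gene symbol among 18193 genes measured on arrays of jaw RNA from mouse embryos at embryonic day 12.5. Where a gene had several probe sets, the one with the highest mean over the 24 arrays stood for it. A gene was tested if its signal exceeded the 30th percentile of its array in at least 3 arrays. Of the 10 ligands, 9 passed and Wnt3 did not, so 9 of the 14879 genes tested are Wnt ligands of this set. The knockout embryos came from crosses in which Wnt1-Cre deletes a floxed Tgfbr2 gene, which encodes the type II TGF-beta receptor, and were recognised by a cleft palate and a skull defect, per the series text. Wnt1-Cre is active in the neural crest, the source of most facial mesenchyme, and not in the facial epithelium. Controls were littermates; their alleles are not stated in the labels. The labels give the strain of both genotypes as C57B6. For each genotype, both jaws were cut into a distal and a proximal piece, which made 8 groups of 3 arrays. The labels do not say whether arrays of a group came from separate or pooled embryos, so p-values measure only the spread between these arrays, which may be technical.

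Wnt proteins are secreted, lipid-modified signals. The enzyme encoded by Porcn attaches the lipid and the carrier encoded by Wls takes the protein to the cell surface. Outside the cell, Wnts bind Frizzled receptors together with coreceptors such as Lrp6, and the signal either stabilises beta-catenin, which acts with TCF/LEF factors on target genes, or changes cell shape and movement through Ror2 and Vangl2 without beta-catenin. Wnt3, Wnt4, Wnt6, Wnt7b, Wnt9b, Wnt10a and Wnt10b are known mainly from the epithelium of the facial processes and the tooth germs, and Wnt5a from the mesenchyme at the tips of the processes. Wnt3 and Wnt9b are required for fusion of the upper lip, Wnt10a is a gene of tooth number, and Wnt11 is known from developing muscle and from beta-catenin-independent signalling.

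Promoter sequences are shown for 4 ligands to which the comparisons below return: Wnt4 and Wnt9b, which were higher at the distal ends, and Wnt6 and Wnt11, which were higher in the mandible. They are the 250 bases before a RefSeq transcription start, 5′ to 3′ on the gene's strand, from the GRCm38.p6 assembly. Of the 10 ligands, 7 had an entry in the sequence table used; Wnt5a, Wnt7b and Wnt10a had none. Capitals mark matches on either strand to 4 motifs: CTTTGA (the core of TCF/LEF sites), TAATTA (Dlx and other homeodomain factors), GCCNNNGGC (AP-2 factors) and CAGCTG (the E-box of myogenic factors). No 2 matches overlapped.
Wnt4, chr4:137277385-137277634, plus strand: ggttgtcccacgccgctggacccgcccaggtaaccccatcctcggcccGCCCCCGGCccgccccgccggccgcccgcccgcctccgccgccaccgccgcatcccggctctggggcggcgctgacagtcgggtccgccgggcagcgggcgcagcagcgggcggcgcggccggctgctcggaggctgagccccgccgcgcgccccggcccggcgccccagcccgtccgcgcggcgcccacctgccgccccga
Wnt9b, chr11:103749822-103750071, minus strand: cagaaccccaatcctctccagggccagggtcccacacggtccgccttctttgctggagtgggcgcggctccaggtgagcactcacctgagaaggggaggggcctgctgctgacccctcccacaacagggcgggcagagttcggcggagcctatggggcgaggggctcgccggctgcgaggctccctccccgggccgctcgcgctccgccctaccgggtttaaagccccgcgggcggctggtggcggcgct
Wnt6, chr1:74771642-74771891, plus strand: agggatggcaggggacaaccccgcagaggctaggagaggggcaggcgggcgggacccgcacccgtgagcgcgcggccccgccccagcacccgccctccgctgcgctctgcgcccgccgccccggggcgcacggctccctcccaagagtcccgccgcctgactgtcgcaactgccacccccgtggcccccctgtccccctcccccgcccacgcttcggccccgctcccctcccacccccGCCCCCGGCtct
Wnt11, the first of 2 starts, chr7:98834862-98835111, plus strand: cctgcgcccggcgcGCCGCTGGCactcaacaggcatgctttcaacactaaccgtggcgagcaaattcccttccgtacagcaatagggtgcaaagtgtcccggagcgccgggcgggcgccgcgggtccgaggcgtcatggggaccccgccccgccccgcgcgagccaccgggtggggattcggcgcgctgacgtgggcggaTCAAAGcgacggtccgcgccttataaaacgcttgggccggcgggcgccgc
The AP-2 motif lay 202 bases before the start of Wnt4, 12 bases before that of Wnt6 and 236 bases before the first start of Wnt11. Among the windows not shown, it lay 35 bases before the start of Wnt10b, 236 and 114 bases before that of Wnt3, 37 bases before the first of 3 starts of Wnt5b, and 38 and 24 bases before the second start of Wnt11. The TCF/LEF core was found in Wnt11, on the reverse strand 50 bases before the first start, and 71 bases before the third start of Wnt5b. The homeodomain motif and the E-box were in none of the windows of the 7 ligands. Wnt9b held none of the 4. Over the 32851 windows of this length in the table, 13.73% held the AP-2 motif, 13.83% the TCF/LEF core, 13.00% the E-box and 4.84% the homeodomain motif. These shares are not matched for base content. The ligand windows held from 53.2% (second start of Wnt5b) to 85.2% (Wnt4) G and C, the only fixed letters of the AP-2 motif. The arrays measured transcripts and not binding, so these matches describe the letters only.

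All values are log2 signals, on which a difference of 1 is a doubling, and they are set side by side within a probe set only. Differences are given with the standard error (SE) of limma's moderated test, group values as mean ± SD (n = 3), and a gene was called at an adjusted p under 0.05 (Benjamini-Hochberg over the genes tested in that comparison). Array medians lay between 7.26 and 7.38, and the 30th percentile between 5.85 and 5.93. Hand2, a transcription factor of the mandible, lay between 10.8 and 13.6 in mandible arrays and between 4.87 and 8.29 in maxilla arrays, without overlap between the jaws, and 6 of 6 tested genes of mandibular identity were called higher in the mandible. Tgfbr2 was 11.78 ± 0.29 (SD, n = 12) in controls and 12.11 ± 0.40 in knockouts, with a difference of 0.34 ± 0.11 (adjusted p = 0.112). The knockout arrays thus showed no fall of the targeted transcript; where the probe set lies relative to the deleted exons is not known here, so it does not check the genotype labels. The Y-linked gene Eif2s3y was at 10.2 to 10.4 in the 4 control arrays numbered 2 and at 3.88 or lower elsewhere. No knockout array held this high signal, so Y-linked signal was not balanced between the genotypes. In 7 arrays the profile over all genes resembled the opposite end of that jaw more than its own group. At both ends this held for control maxilla 1 and knockout mandible 1, and these 4 are called the arrays with doubted ends. The others were control maxilla distal 2, knockout mandible distal 2 and knockout maxilla proximal 3, which stayed in when those 4 were left out. The 4 arrays with doubted ends kept their labels, and the results on ends are given with them and then without them. Leaving them out favours differences between ends, since they were picked for likeness to the opposite end.

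**Figure D1:**
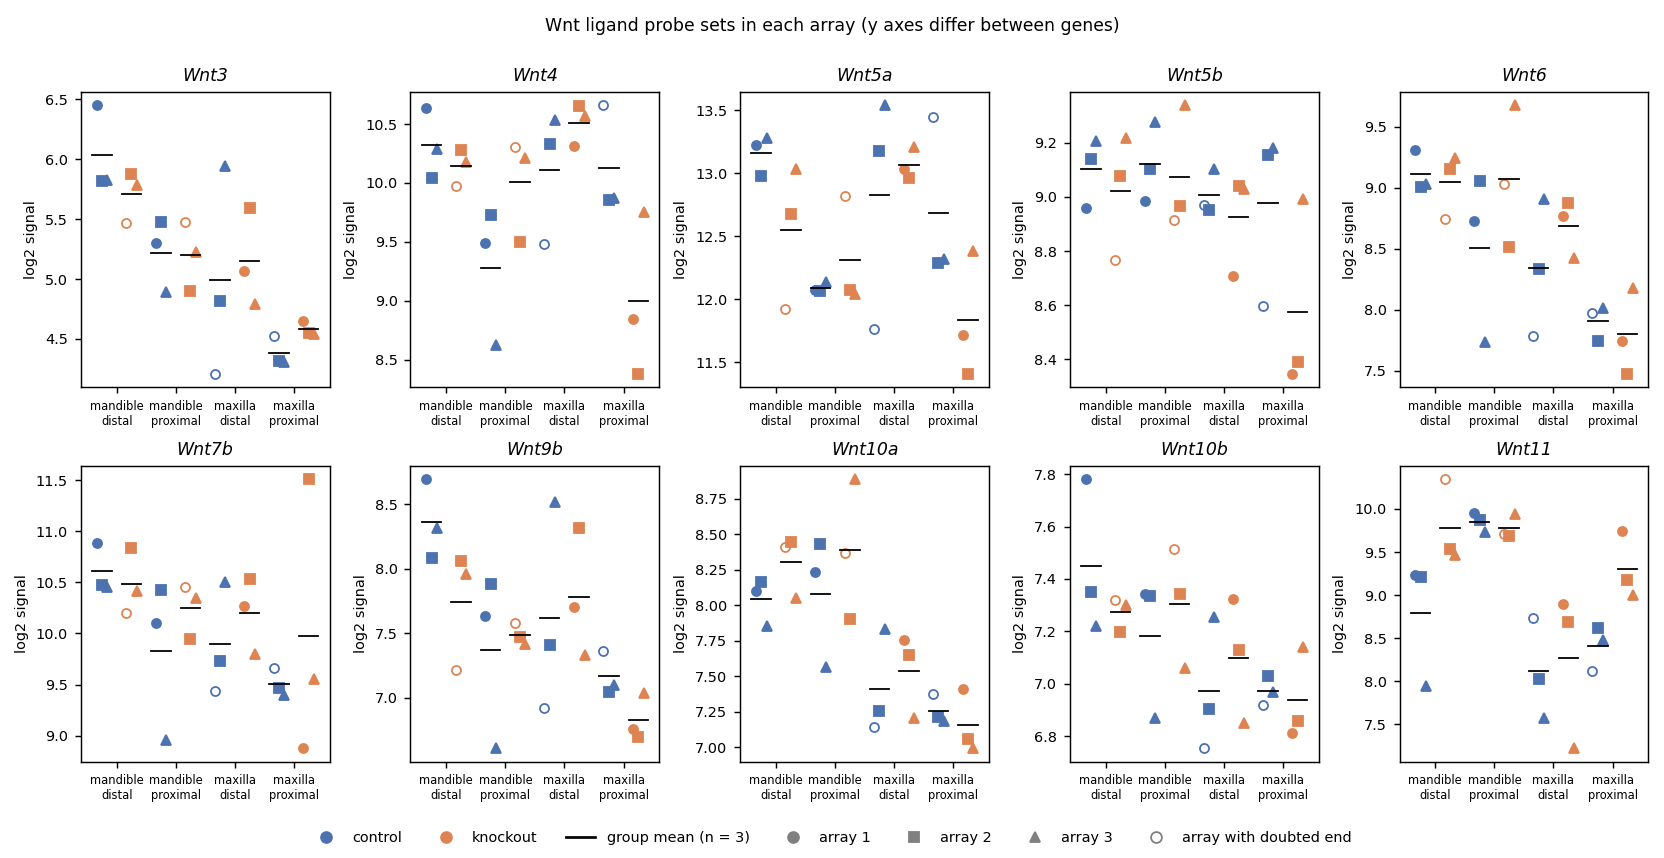
Log2 signal of the 10 Wnt ligands (1 panel each, with its own y axis) in every array, by region on the x axis. Blue marks controls and orange knockouts, circles, squares and triangles are arrays 1 to 3 of a group, black bars are group means (n = 3), and open symbols are the 4 arrays with doubted ends. Wnt10a and Wnt11 sit mostly higher in the mandible, and in the control maxilla the open Wnt5a symbols lie where the other end would be.

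Wnt5a, the ligand of the outgrowing mesenchyme, was measured at 13.23, 12.97 and 13.28 in the control mandible distal arrays and at 12.07, 12.06 and 12.14 proximally, so the ends did not overlap, as was true of 30.3% of all genes tested. In the control maxilla it was 11.76, 13.18 and 13.54 distally and 13.44, 12.29 and 12.31 proximally. The values of array 1 stood on the opposite side from arrays 2 and 3 at both ends. Knockout mandible arrays gave 11.92, 12.68 and 13.03 distally and 12.82, 12.07 and 12.04 proximally, again with array 1 on the opposite side. Knockout maxilla arrays gave 13.03, 12.96 and 13.21 distally against 11.71, 11.41 and 12.38 proximally, without overlap (21.2% of genes). From the highest to the lowest mean (control mandible distal 13.16, knockout maxilla proximal 11.83), all neighbouring groups had overlapping ranges.

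Wnt4 read 10.64, 10.04 and 10.29 in control mandible distal arrays and 9.49, 9.73 and 8.63 in proximal ones. In the control maxilla it read 9.48, 10.33 and 10.54 distally and 10.66, 9.86 and 9.87 proximally. As with Wnt5a, the ends separated in the control mandible and array 1 of the control maxilla stood on the opposite side. Knockout mandible values were 9.97, 10.28 and 10.18 distally and 10.30, 9.50 and 10.21 proximally, and these overlapped. Knockout maxilla values were 10.31, 10.65 and 10.57 distally and 8.85, 8.38 and 9.76 proximally, the widest gap between ends of this gene. Wnt4 is known from kidney and gonad development as well as from the oral epithelium.

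Wnt9b was at 8.69, 8.08 and 8.31 in control mandible distal arrays and at 7.63, 7.88 and 6.61 proximally. The control maxilla gave 6.92, 7.41 and 8.52 distally and 7.36, 7.04 and 7.10 proximally. The distal spread there (SD 0.82) was the largest of the gene. The knockout mandible gave 7.22, 8.06 and 7.96 distally and 7.58, 7.48 and 7.41 proximally, and the knockout maxilla gave 7.70, 8.32 and 7.34 against 6.76, 6.70 and 7.04. Its highest group mean was 8.36 in the control mandible distal end and its lowest was 6.83 in the knockout maxilla proximal end. Wnt3, its neighbour in the genome with no protein-coding gene between them, is represented by 1 probe set of the kind that can detect related sequences (suffix x_at). It exceeded the 30th percentile in 2 arrays. The Wnt3 group means ran from 6.03 ± 0.36 in the control mandible distal end to 4.38 ± 0.12 in the control maxilla proximal end. Most arrays thus read below the filter for it, and whether that signal exceeds background was not tested.

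Wnt6, an epithelial ligand, was at 9.31, 9.01 and 9.03 in control mandible distal arrays and at 8.73, 9.06 and 7.73 proximally. In the control maxilla it was 7.78, 8.34 and 8.91 distally and 7.98, 7.74 and 8.01 proximally. Distal mandible and distal maxilla did not overlap in controls, as for 36.1% of genes, whereas the proximal ends did. Knockout values were 8.74, 9.15 and 9.25 (mandible distal), 9.03, 8.51 and 9.68 (mandible proximal), 8.77, 8.87 and 8.42 (maxilla distal) and 7.74, 7.47 and 8.18 (maxilla proximal). Wnt10a, which lies beside Wnt6 in the genome with no protein-coding gene between, was at 8.10, 8.17 and 7.85 in control mandible distal arrays and at 8.23, 8.43 and 7.57 proximally. Its control maxilla values were 7.14, 7.25 and 7.83 distally and 7.37, 7.22 and 7.18 proximally, all below the mandible values of the same end, as neither end overlapped between jaws (36.1% of genes distally and 45.6% proximally). Knockout values of Wnt10a were 8.41, 8.45 and 8.05 (mandible distal), 8.37, 7.90 and 8.89 (mandible proximal), 7.76, 7.65 and 7.20 (maxilla distal) and 7.41, 7.06 and 6.99 (maxilla proximal). The 4 mandible groups ranked above the 4 maxilla groups, and the step between them, from 8.04 in control mandible distal to 7.54 in knockout maxilla distal, was the only one between neighbouring groups at which the ranges of Wnt10a did not overlap.

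Wnt11 was at 9.24, 9.21 and 7.95 in control mandible distal arrays and at 9.95, 9.88 and 9.73 proximally. In the control maxilla it was 8.74, 8.03 and 7.57 distally and 8.13, 8.62 and 8.48 proximally. The proximal mandible held the highest control values, and control mandible distal array 3 stood far below its group. Knockout values were 10.34, 9.54 and 9.46 (mandible distal), 9.71, 9.69 and 9.94 (mandible proximal), 8.90, 8.69 and 7.22 (maxilla distal) and 9.74, 9.18 and 9.00 (maxilla proximal). Over the 24 arrays its range of 3.12 was the widest of the 10 ligands.

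The other ligands varied less between groups. Wnt5b, known from cartilage growth, had group means from 9.12 ± 0.15 (control mandible proximal) to 8.58 ± 0.36 (knockout maxilla proximal), a range over arrays of 0.99. Wnt10b, a ligand of tooth and bone, ran from 7.45 ± 0.29 (control mandible distal) to 6.94 ± 0.18 (knockout maxilla proximal). Wnt7b, an epithelial ligand that nerve tissue also makes, ran from 10.61 ± 0.24 (control mandible distal) to 9.51 ± 0.14 (control maxilla proximal). In the knockout maxilla proximal arrays Wnt7b read 8.88, 11.51 and 9.55, which include both its lowest and its highest value. No neighbouring pair of groups in the order of means had separate ranges for these 3 genes, nor for Wnt4, Wnt5a, Wnt6 and Wnt11. The share of a ligand's variance lying between the 8 groups went from 30.35% for Wnt7b to 75.52% for Wnt10a. With 3 arrays per group, such a share is positive even where groups do not differ. How much of it is due to that was not computed.

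Knockout and control jaws were compared to find genes that respond to loss of the TGF-beta receptor. Averaged over the 4 regions, none of the 9 ligands tested was called, and 0.470% of all genes tested were. Of the 9 differences, 5 were positive and 4 negative, with a median of 0.01 against 0.01 over all genes tested. Wnt11 showed the largest, 0.49 ± 0.20 (95% interval 0.07 to 0.91, unadjusted p = 0.0253, limma adjusted p = 0.160). It was the 1 ligand with an unadjusted p under 0.05, a cut that 3459 of the 14879 genes tested passed. Its values lay between 7.57 and 9.95 (median 8.68) in the 12 control arrays and between 7.22 and 10.34 (median 9.50) in the 12 knockout arrays, so the genotypes overlapped almost fully. The intervals of the other 8 ligands included 0; the lowest bound among them was -0.67 (Wnt5a) and the highest 0.78 (Wnt7b). The skeletal muscle markers, which covary with Wnt11 as described below, had a median difference of 1.52 in this comparison, with 1 of 12 (Cdh15) called higher and 11 at an unadjusted p under 0.05, and without the arrays with doubted ends 0 were called at a median of 1.59. The mean level of these markers went from 6.50 to 11.18 in mandible arrays and from 6.67 to 10.61 in maxilla arrays; the part of muscle RNA in the Wnt11 difference was not tested. In RNA of whole tissue, fewer cells of a type and less RNA per cell cannot be told apart.

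**Figure D2:**
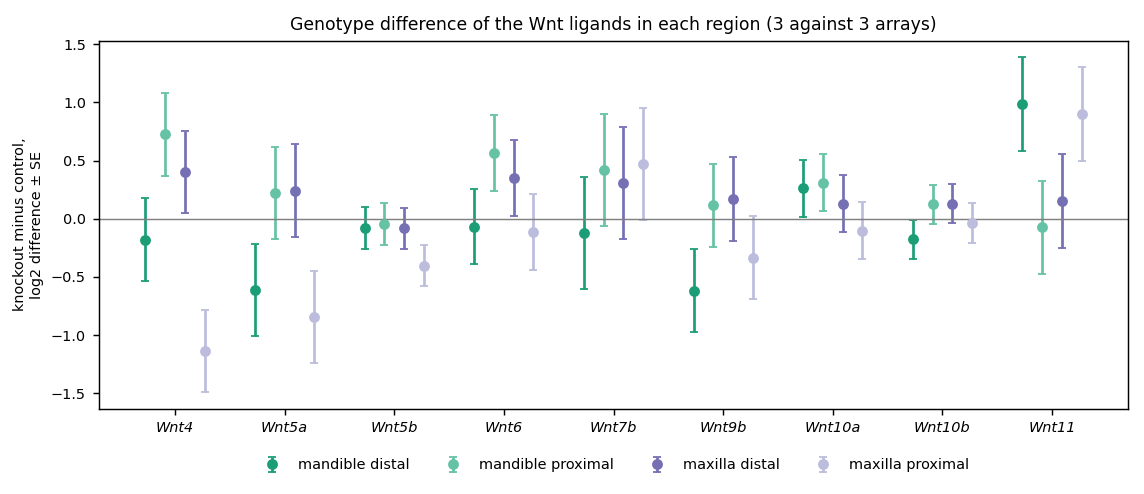
Knockout minus control difference (log2, y axis) of the 9 tested Wnt ligands in each of the 4 regions, as points with bars of 1 SE from the limma fit (3 against 3 arrays). The widest departures from 0 are Wnt4 at -1.13 in the maxilla proximal end and Wnt11 at 0.98 in the mandible distal end, and none passed adjustment.

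By region, the ligands gave 0 calls in the mandible distal end (0.134% of all genes were called there), the mandible proximal end (0.0538%), the maxilla distal end (0.0202%) and the maxilla proximal end (5.77%). The numbers of ligands with an unadjusted limma p under 0.05 were 1, 0, 0 and 4. Of the 14879 genes tested, 1881, 425, 395 and 3861 were under it in the same order. In the mandible distal end, Wnt11 differed by 0.98 ± 0.40 (adjusted p = 0.317), and its 3 knockout values lay above all 3 control values, which held for 14.5% of genes in one direction or the other. Wnt9b differed by -0.62 ± 0.36 there (adjusted p = 0.493), also without overlap, though its highest knockout value (8.06) lay just below the lowest control value (8.08). The mean muscle marker level was 8.01, 9.67 and 6.50 in these controls and 11.18, 10.63 and 10.39 in the knockouts, so it did not overlap either. Without the arrays with doubted ends, no ligand was called in any region, where 0.0874%, 0.0134%, 0.0134% and 0.101% of genes were called in the same order.

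In the maxilla proximal end, Wnt4 was lower in all 3 knockout arrays than in all 3 controls, by -1.13 ± 0.35 (unadjusted p = 0.0048, limma adjusted p = 0.0614). Wnt11 (0.90 ± 0.40, adjusted p = 0.167) and Wnt9b (-0.33 ± 0.36, adjusted p = 0.588) also did not overlap, as was true of 25.3% of genes in that region. For Wnt9b the highest knockout value (7.0418) and the lowest control value (7.0424) were almost equal. Wnt5a (-0.85 ± 0.40, adjusted p = 0.184) and Wnt5b (-0.40 ± 0.18, adjusted p = 0.165) had unadjusted p-values of 0.0461 and 0.0377. Single arrays weighed heavily on these values. Without knockout maxilla proximal array 3, the Wnt4 difference was -1.52 (adjusted p = 0.00499) and that of Wnt5b -0.61 (adjusted p = 0.0174), and both were then called. With the arrays with doubted ends left out, among them control maxilla proximal array 1, Wnt4 differed by -0.87 (limma adjusted p = 0.192) and Wnt5a by -0.47 (0.224). Wnt5b then differed by -0.59 (0.105), Wnt11 by 0.76 (0.345) and Wnt9b by -0.24 (0.766). Epithelial and neural markers moved with this comparison. Of 14 epithelial markers tested, 8 were called lower and 0 higher in the knockout, with a median of -1.58, and 4 of 10 neuronal markers were called higher. Mean epithelial marker levels were 8.34, 8.43 and 10.18 in the 3 knockout arrays and 10.20 to 10.64 in the controls. Knockout array 3 thus lay nearest to the controls in both epithelial markers and Wnt4, just below their range. The profile of this array correlated more with the opposite end of its jaw (mean r = 0.378) than with its own group (0.205). It stayed in the fits without the arrays with doubted ends. Without the arrays with doubted ends, 0 epithelial markers and 1 neuronal marker were called in this comparison, with medians of -1.56 and 0.95. The neuronal marker level was 10.95 to 12.38 in the knockout arrays and 9.67 to 10.12 in the controls. The muscle marker level, beside the Wnt11 values, was 8.57 to 10.61 in the knockout arrays and 7.08 to 7.59 in the controls. The part of these cell types in the ligand differences was not tested.

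Whether the genotype difference varied between jaws or ends was tested directly. None of the 9 ligands was called for either, where 0.0336% and 0.00672% of genes were. None had an unadjusted limma p under 0.05, which 985 and 639 of the 14879 genes tested had. The largest jaw interaction was that of Wnt4, 0.64 ± 0.35 (adjusted p = 0.834).

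Other members of the pathway were as sparse in the genotype comparison. Averaged over regions, 0 of 6 other Wnt ligands, 0 of 3 genes of Wnt secretion, 0 of 18 receptors and coreceptors, 0 of 15 antagonists, 0 of 8 R-spondins and their receptors, 0 of 14 genes acting inside the cell and 0 of 12 beta-catenin targets were called by limma. In the same order, 1, 0, 1, 4, 3, 2 and 2 of them had an unadjusted p under 0.05, as did 3459 of the 14879 genes tested. Without the arrays with doubted ends the counts were also 0, except that 1 of the 8 R-spondins and their receptors was called lower. In the maxilla proximal end, where 5.77% of all genes were called, 2 antagonists were called higher in the knockout, Draxin (1.57 ± 0.37, adjusted p = 0.0258) and Dkk2 (0.77 ± 0.22, adjusted p = 0.0438). Dkk1, which blocks the Lrp coreceptors, was called lower by -1.76 ± 0.46 (adjusted p = 0.0338), as was Rnf43, a membrane ubiquitin ligase that removes Frizzled receptors (-1.08 ± 0.25, adjusted p = 0.0251). The beta-catenin target Lef1 was at -1.23 ± 0.36 (adjusted p = 0.051). In the mandible distal end, where 0.134% of genes were called, Tcf7l2, a TCF factor, was called higher in the knockout by 0.42 ± 0.07 (adjusted p = 0.0169). None of these genes was called without the arrays with doubted ends.

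Comparing the jaws over both genotypes and ends, 4 of the 9 ligands were called, all higher in the mandible: Wnt11 by 1.03 ± 0.20 (limma adjusted p = 0.000495), Wnt10a by 0.86 ± 0.12 (2.67e-05), Wnt6 by 0.75 ± 0.16 (0.00112) and Wnt10b by 0.31 ± 0.08 (0.00649). Over all genes tested 46.6% were called and 25.1% were called higher, so the number of ligands called was near the background. The median difference of the 9 ligands was 0.39, against 0.02 over all genes. Wnt10a lay between 7.57 and 8.89 (median 8.20) in the 12 mandible arrays and between 6.99 and 7.83 (median 7.23) in the 12 maxilla arrays. Wnt11 lay between 7.95 and 10.34 (median 9.70) in the mandible and between 7.22 and 9.74 (median 8.66) in the maxilla. Wnt6 ran from 7.73 to 9.68 in the mandible and from 7.47 to 8.91 in the maxilla. All 3 overlapped between jaws at their extremes. Wnt5b (0.21 ± 0.09, adjusted p = 0.0659), Wnt9b (0.39 ± 0.18, 0.0802) and Wnt7b (0.40 ± 0.24, 0.184) were not called. Wnt4 differed by 0.00 ± 0.18 with 9.94 in both jaws, and Wnt5a by -0.08 ± 0.20. The Wnt4 value averages differences of both signs. In controls, Wnt4 was lower in the mandible at the proximal ends (-0.85 ± 0.35, limma adjusted p = 0.116). In knockouts, its proximal values lay mostly higher in the mandible, at 9.50 to 10.30 against 8.38 to 9.76 in the maxilla.

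Leaving out any single array kept all 4 calls, and without the arrays with doubted ends the Wnt10b difference was 0.24 (adjusted p = 0.0613), so that 3 of 9 ligands were called against 37.3% of genes. Without knockout maxilla proximal array 2, which held the highest Wnt7b value, Wnt7b was called too (0.59, adjusted p = 0.0102). The Wnt3 signal, below the filter in most arrays and tested here without it, was 0.77 ± 0.15 higher in the mandible (limma adjusted p = 0.000743 over 18193 genes). Within controls, the proximal ends gave calls for Wnt11 (1.44 ± 0.40, adjusted p = 0.0226) and Wnt10a (0.82 ± 0.25, 0.0324), 2 of 9 ligands against 14.5% of all genes called and 7.94% called higher. Each of these depended on single arrays: the Wnt11 call was lost without control mandible proximal 1 (adjusted p = 0.0702), 2 (0.0684) or 3 (0.0521) or control maxilla proximal 1 (0.106). The Wnt10a call was lost without control mandible proximal 1 (0.108) or 2 (0.153) or control maxilla proximal 1 (0.0732), 2 (0.0745) or 3 (0.0752). Without the arrays with doubted ends, Wnt11 (adjusted p = 0.0853) and Wnt10a (0.0878) were not called, and 8.11% of genes were. Over all arrays, Wnt4 was lower in the control proximal mandible by -0.85 ± 0.35 (unadjusted p = 0.0272, limma adjusted p = 0.116). Wnt5a was lower there by -0.59 ± 0.40 (adjusted p = 0.341). Neither was called, and neither overlapped between jaws, as for 45.6% of genes. Without the arrays with doubted ends these differences were -0.58 (0.39) and -0.21 (0.638). At the control distal ends 0 of 9 were called, where 14.0% of genes were. There 4357 of the 14879 genes tested had an unadjusted limma p under 0.05. Among them were 3 ligands: Wnt10b (0.48 ± 0.17, adjusted p = 0.0666), Wnt10a (0.63 ± 0.25, 0.0939) and Wnt6 (0.77 ± 0.33, 0.12).

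**Figure D3:**
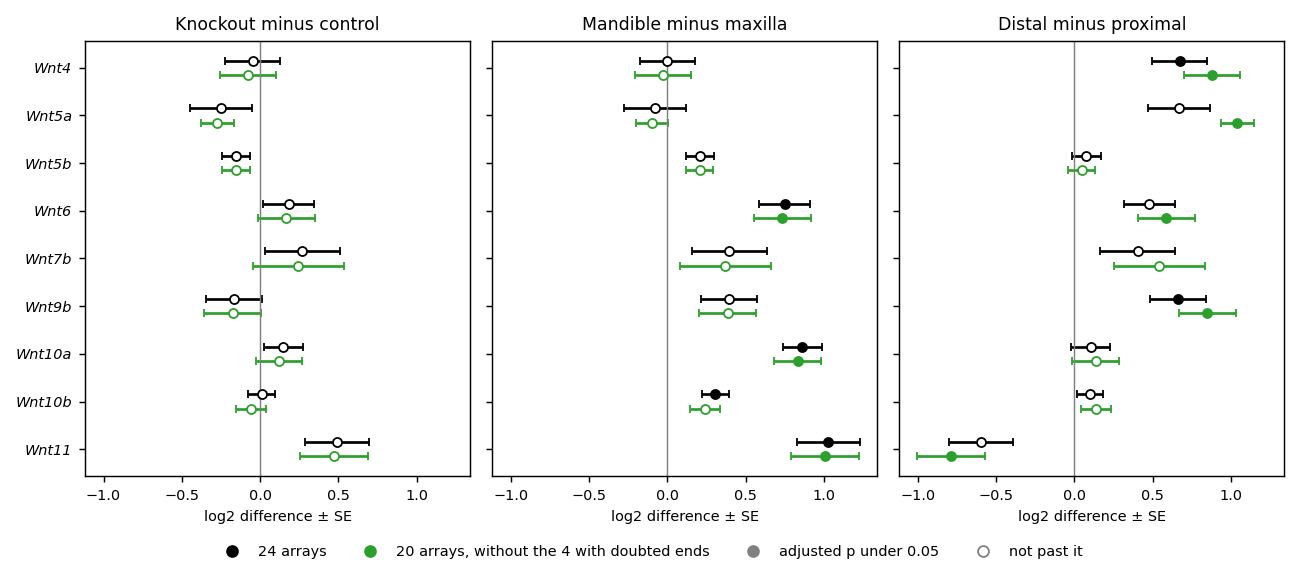
Log2 differences with 1 SE (x axis) of the 9 tested Wnt ligands for genotype, jaw and end, over all 24 arrays (black) and over the 20 arrays left without those with doubted ends (green). Filled points have an adjusted p under 0.05. None is filled for genotype. For jaw, 4 of 9 are filled in black, and for ends 2 in black and 5 in green.

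Cell type markers differed between the jaws as well. Of 12 skeletal muscle markers, 11 were called higher in the mandible, with a median of 2.52 over the list, and 1, Pax7, lower. Among 14 epithelial markers, 3 were called higher in the mandible (Krt15, Krt5 and Perp) and 7 lower (Krt18, Cldn6, Cldn7, Krt8, Epcam, Grhl2 and Esrp1). Krt5 and Krt15 mark stratified epithelium and Krt8 and Krt18 simple epithelium. Of 10 neuronal markers 7 were called lower in the mandible. Of the mesenchyme list, 3 of 10 were called higher, of glia and Schwann cells 1 of 5 lower, of endothelium 2 of 8 higher, and of erythroid cells 0 of 6. The part of these cell types in the ligand differences was not tested. The counts of pathway genes called are to be read against the 46.6% of all genes called and 25.1% called higher; those of the receptors (9 of 18), antagonists (8 of 15) and beta-catenin targets (4 of 12) were near that background. Wls was higher in the mandible (0.34 ± 0.05) and Porcn lower (-0.28 ± 0.06). Among 18 receptors and coreceptors 6 were called higher, such as Ror2 (0.42 ± 0.05) and Fzd4 (0.54 ± 0.12), and 3 lower, including Vangl2 (-0.32 ± 0.04) and Fzd3 (-0.56 ± 0.08). Among 15 antagonists 6 were called higher, such as Sostdc1 (1.25 ± 0.20), Frzb (0.79 ± 0.12) and Dkk2 (0.72 ± 0.11), and 2 lower, including Sfrp1 (-0.53 ± 0.13). Of 12 beta-catenin targets 4 were called higher (Tnfrsf19, Sp5, Apcdd1 and Myc) and 0 lower. Of 14 genes acting inside the cell, 2 were called higher and 4 lower, including Gsk3b (-0.27 ± 0.04), and of 8 R-spondins and their receptors 1 higher (Lgr5, 0.66 ± 0.14) and 2 lower (Rspo1 and Rnf43). Of 6 other Wnt ligands, Wnt2 (1.05 ± 0.25) and Wnt3a (0.38 ± 0.12) were called higher and Wnt16 (-0.32 ± 0.10) lower.

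Comparing the ends over both genotypes and jaws, Wnt4 and Wnt9b were called higher distally, 2 of 9 ligands against 3.86% of all genes called and 1.59% called higher. Wnt4 differed by 0.67 ± 0.18 (limma adjusted p = 0.0426), with 9.48 to 10.65 (median 10.30) in the 12 distal arrays and 8.38 to 10.66 (median 9.74) in the 12 proximal arrays. Wnt9b differed by 0.66 ± 0.18 (adjusted p = 0.0468), with 6.92 to 8.69 (median 8.01) distally and 6.61 to 7.88 (median 7.23) proximally. Both calls were close to the threshold. Without the 4 control arrays numbered 2 neither was made (adjusted p = 0.15 for Wnt4 and 0.147 for Wnt9b), nor with each probe set tested singly (0.0508 and 0.0554). The Wnt9b call was also lost with median centring (0.0516), without a filter (0.0524) and, at a difference of 0.36, with the mean of its probe sets (0.0515). With the array number as a replicate block, and with sets of 1 genotype and number as a random block, 4 ligands were called, and over the 24 fits that leave out 1 array each was made in 7. Both were made without control mandible distal 2, control maxilla distal 1 or proximal 1, knockout mandible distal 1 or proximal 1, or knockout maxilla proximal 3. The Wnt4 call was also made without knockout maxilla distal 1 and the Wnt9b call without knockout maxilla distal 3. Their adjusted p went up to 0.0862 for Wnt4 and 0.0955 for Wnt9b in the others. Wnt5a had as large a difference, 0.67 ± 0.20 (adjusted p = 0.0609), with 11.76 to 13.54 (median 13.03) distally and 11.41 to 13.44 (median 12.11) proximally. Wnt11 went the other way, at -0.60 ± 0.20 (adjusted p = 0.0827), and Wnt6 was at 0.48 ± 0.16 (0.0854). Wnt7b (0.40 ± 0.24), Wnt10a (0.10 ± 0.12), Wnt10b (0.10 ± 0.08) and Wnt5b (0.08 ± 0.09) had adjusted p-values of 0.293 or more. The Wnt3 signal without the filter was 0.63 ± 0.15 higher distally (adjusted p = 0.0418).

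Over the 20 arrays left without those with doubted ends, 5 of 9 ligands were called, where 17.8% of genes were. Wnt5a was 1.04 ± 0.10 higher distally (limma adjusted p = 3.44e-05), Wnt4 0.88 ± 0.18 (0.00499), Wnt9b 0.85 ± 0.18 (0.00675) and Wnt6 0.59 ± 0.18 (0.0394). The Wnt11 difference was -0.79 ± 0.22 (0.0238). The choice of arrays favours such differences, as stated above. The largest move was that of Wnt5a, whose values in the arrays with doubted ends were 11.76 and 11.92 at the distal ends and 13.44 and 12.82 at the proximal ends.

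Single jaws gave fewer calls. In the knockout maxilla Wnt4 was higher distally by 1.52 ± 0.35 (limma adjusted p = 0.0231), the 1 ligand called among 9, where 6.16% of genes were called and 2.90% called higher. The ends did not overlap for Wnt4, Wnt5a (1.23 ± 0.40, adjusted p = 0.0659), Wnt9b (0.95 ± 0.36, 0.104), Wnt6 (0.89 ± 0.33, 0.0957) and Wnt11 (-1.04 ± 0.40, 0.113), as for 21.2% of genes. The Wnt4 call was lost without knockout maxilla distal array 2 (adjusted p = 0.0805) or 3 (0.0643) or proximal array 1 (0.126) or 2 (0.146). In the control mandible 0 of 9 ligands were called and 3.45% of genes were. An unadjusted limma p under 0.05 was found for 4 ligands and for 2771 of the 14879 genes tested. For 5 ligands the ends did not overlap, as for 30.3% of genes. These were Wnt5a (1.07 ± 0.40, adjusted p = 0.148), Wnt4 (1.04 ± 0.35, 0.112), Wnt9b (0.99 ± 0.36, 0.14), Wnt7b (0.78 ± 0.48, 0.417) and Wnt11 (-1.06 ± 0.40, 0.161). Without the arrays with doubted ends, none of which is a control mandible array, the Wnt5a value had an adjusted p of 0.0034 at the same difference, with an SE of 0.19, and was the 1 ligand of 9 called there against 6.62% of genes. In the knockout maxilla Wnt4 and Wnt5a (adjusted p = 0.0171 and 0.0037) were then called, against 8.90% of genes. In the control maxilla and the knockout mandible limma called 0 of all genes tested, with 103 and 72 genes at an unadjusted p under 0.05 and no ligand among them. These groups hold the 4 arrays with doubted ends. In the control maxilla, Wnt5a went from 0.14 ± 0.40 with them to 1.06 ± 0.23 without them (adjusted p = 0.0514), Wnt4 from -0.02 to 0.57 (0.794) and Wnt9b from 0.45 to 0.89 (0.545). In the knockout mandible, Wnt5a went from 0.23 ± 0.40 to 0.80 ± 0.23 (0.287), Wnt4 from 0.14 to 0.37 (1) and Wnt9b from 0.26 to 0.57 (1). No ligand was called in either without them, where 0.699% and 0.108% of genes were. No ligand was called for a difference of ends between jaws (0 of 9, with 0 genes called and 814 at an unadjusted p under 0.05).

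Marker lists and pathway genes also differed between the ends. All 14 epithelial markers tested had positive differences, with a median of 0.72, and 4 were called higher distally (Krt14, Cdh1, Esrp1 and Grhl2). Of 10 neuronal markers 5, of 5 glial and Schwann markers 4 and of 12 muscle markers 1 (Cdh15) were called lower distally. No mesenchyme, endothelium or erythroid marker was called. Correlations of ligands with the epithelial marker score are given below. The part of epithelium in the ligand differences between ends was not tested. Among the antagonists, 4 of 15 were called higher distally, including Dkk1 (1.23 ± 0.23), Dkk4 (1.19 ± 0.27) and Wif1 (1.01 ± 0.24), which bind Lrp coreceptors or Wnts themselves. Of the 2 called lower, Sfrp1 differed by -0.49. The receptor gene Fzd10 was higher distally (0.70 ± 0.17), the 1 of 18 receptors and coreceptors called. Of 8 R-spondins and their receptors 4 were higher distally and 0 lower: Lgr6 (1.22 ± 0.28), Rspo1 (0.61 ± 0.15), Rnf43 (0.57 ± 0.13) and Znrf3 (0.30 ± 0.08). Of 12 beta-catenin targets 2 were called higher, Bmp4 (1.00 ± 0.20) and Tnfrsf19 (0.37 ± 0.08), and 11 had positive differences. No other Wnt ligand, secretion gene or gene acting inside the cell was called by limma. An unadjusted p under 0.05 was found for 2, 0 and 1 of them, and for 3869 of the 14879 genes tested. Without the arrays with doubted ends, where 17.8% of all genes were called, most of these counts grew. Of the beta-catenin targets 10 of 12 were then called higher distally and 1 lower, of the antagonists 7 higher and 3 lower, of the R-spondins and their receptors 5 higher and 1 lower, of the receptors and coreceptors 2 higher and 3 lower, and of the other Wnt ligands 1 lower. Among the markers, 8 of 14 epithelial and 5 of 10 mesenchyme markers were then called higher distally, and 8 of 12 muscle, 6 of 10 neuronal, 4 of 5 glial and Schwann and 1 of 8 endothelial markers lower. No erythroid marker, secretion gene or gene acting inside the cell was called in that fit. Msx1 and Msx2 belong to both the beta-catenin target and the mesenchyme list.

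**Figure D4:**
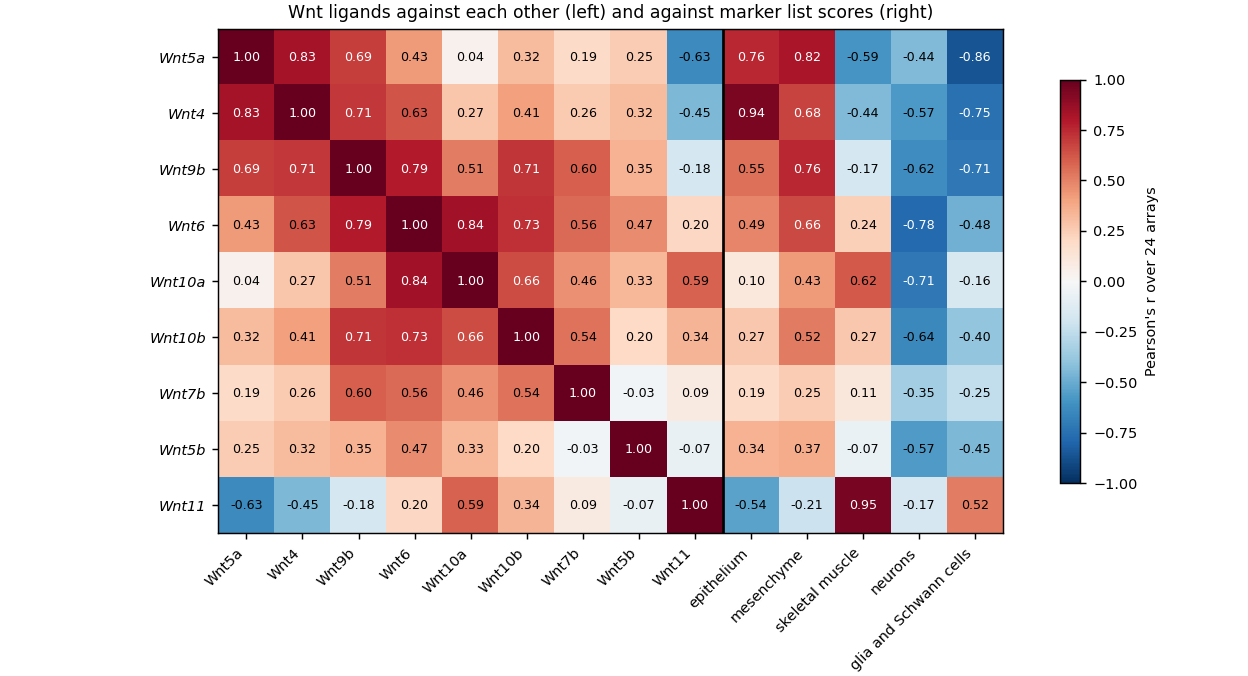
Pearson's r over the 24 arrays between the 9 tested Wnt ligands (left) and between each ligand and the scores of 5 marker lists (right, after the black line), where a score is the mean deviation of a list's genes from their means. Red is positive and blue negative. Wnt4 and Wnt5a (0.83) and Wnt6 and Wnt10a (0.84) form the closest pairs, and Wnt11 stands beside the muscle score (0.95).

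Across the 24 arrays the ligands fell into partly overlapping sets. These correlations are descriptions, since the arrays share regions and dissections. Wnt4 and Wnt5a had r = 0.83, and r = 0.72 from deviations within groups. Wnt6 correlated with Wnt10a (0.84), Wnt9b (0.79) and Wnt10b (0.73). Wnt5a and Wnt11 were opposed (-0.63). The neighbouring genes Wnt3 and Wnt9b had r = 0.87, though the Wnt3 signal was below the filter in most arrays. The pair Wnt6 and Wnt10a also lies side by side, whereas the neighbours Wnt3a and Wnt9a had r = 0.20 and Wnt1 and Wnt10b r = -0.04. Wnt1, like Wnt3, did not pass the filter.

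The genes most like each ligand over the 24 arrays were found among all genes tested. For Wnt4 they were Dsp (r = 0.959), Sfn (0.959) and Pkp3 (0.949), genes of desmosomes and of stratified epithelium, and Wnt4 followed the epithelial marker score with r = 0.94. For Wnt6 they were Cers3 (0.926), Krt5 (0.919) and Lamb3 (0.882), for Wnt9b Fzd10 (0.887), Mir205hg (0.865) and Col17a1 (0.840), and for Wnt10b Anxa8 (0.866), Lama3 (0.841) and Sgk3 (0.837). Krt5, Lamb3, Lama3 and Col17a1 are known from the basal layer of epithelium and its attachment. The epithelial marker score correlated less with these ligands than with Wnt4, at r = 0.49 for Wnt6, 0.55 for Wnt9b and 0.27 for Wnt10b. From deviations within groups the values were 0.79, 0.62 and 0.54, against 0.92 for Wnt4. Wnt5a was closest to Ptk7 (0.960), a receptor-like protein of planar polarity, Cachd1 (0.955) and a, the agouti gene (0.949), and correlated with several scores, at r = 0.91 for beta-catenin targets, 0.89 for R-spondins and their receptors, 0.82 for mesenchyme, 0.76 for epithelium and -0.86 for glia and Schwann cells. The beta-catenin target and mesenchyme scores both include Msx1 and Msx2, so they are not separate measures. Wnt11 was closest to Myog (0.964), Acta2 (0.963) and Ttn (0.960), genes of muscle differentiation and contraction, and followed the muscle score with r = 0.95. Wnt10a was closest to Hspb1 (0.916), Slc2a3 (0.906) and Htra1 (0.892), Wnt5b to Poc1a (0.903), Shq1 (0.889) and Med29 (0.887), and Wnt7b to Wnt3a (0.793), Pnoc (0.766) and Irx4 (0.743). Over the 8 group means instead, 2 of the 3 genes stayed for Wnt4 (Dsp and Sfn), 1 for Wnt9b (Fzd10) and 0 for each of the others.

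**Figure D5:**
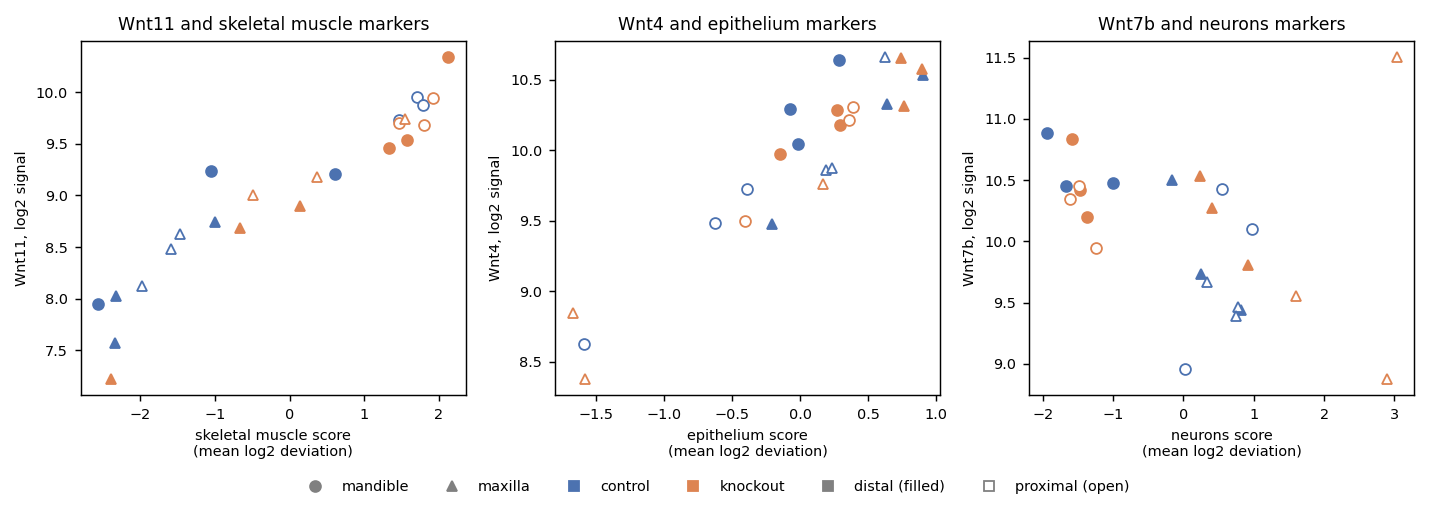
Log2 signal (y axis) of Wnt11, Wnt4 and Wnt7b against the score of skeletal muscle, epithelium and neuron markers (x axis, mean log2 deviation), 1 point per array. Circles are mandible and triangles maxilla, blue is control and orange knockout, filled is distal and open proximal. Wnt11 and Wnt4 are high where their scores are high (r = 0.95 and 0.94), and Wnt7b does not follow the neuron score (r = -0.35).

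Where a ligand had further probe sets, these were tested singly among 27655. The 4 Wnt5a probe sets all read higher distally, by 0.67 to 1.09, and correlated with the main one at r = 0.94 to 0.99. The second Wnt4 probe set gave 0.61 ± 0.16 for the ends (r = 0.99 with the first), and the second Wnt6 probe set 0.78 ± 0.18 for the jaws (adjusted p = 0.00192, r = 0.97). The 2 Wnt7b probe sets both read highest of their group in knockout maxilla proximal array 2, the second to 9.18 against 6.63 and 7.41 in arrays 1 and 3. The Wnt5b probe sets disagreed about the jaws, at 0.21 ± 0.09 and -0.06 ± 0.09, neither called. The second Wnt9b probe set, with a mean of 5.27, did not pass the filter (r = 0.44).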

How the data were processed

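RNA was labelled with biotin and hybridised to 24 single-colour arrays of 45101 probe sets. The deposited table holds log2 signal, computed by the authors with RMA per the submitters' processing notes, with no version stated there. RMA scales all arrays to a common distribution, so a change shared by most genes cannot be seen. Probe sets with 1 annotated symbol (34945) were used and 932 with several were left out. Limma 3.58.1 in R 4.3.3 fitted 8 group means to all arrays (16 residual degrees of freedom), with its two-sided moderated test and Benjamini-Hochberg adjustment over 14879 genes, in each comparison. The fit was tested on simulated data. No replicate block was used in the main fit: the labels do not say that a number marks common embryos, and not every same-numbered pair correlated above 0.1. That cut cannot exclude pairing, since it also counts pairs across genotypes, which cannot be the same embryo. Between jaws, same-numbered arrays correlated from 0.02 to 0.42, and Y-linked signal was confined to the controls numbered 2. If numbers mark common embryos, the main tests of jaw and end ignore that pairing. Fits with a block are given in the closing section.

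The ligands, gene lists, markers, the 4 arrays with doubted ends and the 4 control arrays with Y-linked signal were chosen with earlier results of these data known. The text names all 10 ligands, Tgfbr2, up to 4 called members per list and comparison by smallest p, and 3 most alike genes per ligand; Lef1, the epithelial markers of each direction and single examples beyond that were named after their values were seen. Alternatives were median centring, cyclic loess, other filters, other uses of probe sets, a prior with trend, only the groups compared, 2 replicate blocks and sets of arrays left out. Background correction could not be varied from RMA values. Sequences are from RefSeq (GRCm38.p6).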

Additional observations from a re-analysis of the deposited data

How the results depend on the processing

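Over all alternatives, 5130 values of single ligands were recomputed: 5021 kept their side of the threshold, 61 lost a call, 48 gained one and 0 called values changed sign. The 4 calls for jaw held throughout except Wnt10b without the arrays with doubted ends, and the number called went from 4 to 6 over the fits leaving out 1 array. The 2 calls for ends became 1 with median centring, 1 with the mean of all probe sets, 0 with each probe set singly, 5 without the arrays with doubted ends, 0 without the 4 control arrays numbered 2, and 0 to 5 over the fits leaving out 1 array. With the array number as a replicate block they were 4, and 4 with the 6 sets of 1 genotype and number as a random block (correlation 0.16). In the knockout maxilla the 1 call for ends became 0 with only the groups compared, 2 without the doubted arrays, 0 without the controls numbered 2 and 0 to 4 leaving out 1 array, and 3 with the array number and 2 with the random sets as replicate block. In the control mandible, 0 calls for ends became 1 with only the groups compared and 1 without the doubted arrays. For jaw, the 2 calls at control proximal ends became 0 without the doubted arrays, 0 without the controls numbered 2 and 0 to 2 leaving out 1 array; the 0 at control distal ends became 1 without a filter (Wnt3), 1 with the random replicate block and 0 to 2 leaving out 1 array. For genotype, 0 calls in the maxilla proximal end became 1 with the array number as replicate block (Wnt5b, adjusted p = 0.0276) and 0 to 2 leaving out 1 array. The labels do not tie the array numbers to embryos. Deviations of same-numbered arrays correlated from -0.15 to 0.39 between genotypes (median 0.05, 5 of 12 pairs over 0.1), from 0.02 to 0.42 between jaws (median 0.20, 8 of 12) and from -0.65 to 0.54 between ends (median 0.10, 6 of 12); Y-linked signal was present in all 4 controls numbered 2 and in no other array. The cause of these changes was not tested. The number of arrays limits the precision: the median SE over all genes tested was 0.05 for 12 against 12 arrays and 0.11 for 3 against 3. The ligands were less precise, from 0.08 (Wnt10b) to 0.24 (Wnt7b) for 12 against 12 and from 0.17 to 0.48 for 3 against 3.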
